A study of Mus musculus with 6 samples.

Results

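The mouse microRNAs (miRNAs) that carry the numbers 680 to 730 were examined in fetal and adult B cell progenitors. All array names with such a number were taken, with any letter or arm suffix, and this gave 44 of the 567 mouse miRNAs on the array, with 168 probes. Names alone decided membership, although earlier results of these data were known when the choice was made. Of the 44 members, 12 were well above background on at least 1 array, 10 could be tested between tissues, and 2 of these differed, miR-714 and miR-721, both higher in fetal liver.

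Both tissues supplied pro-B cells, sorted as Fr. B/C by the scheme of Hardy. At this stage the heavy chain locus is being rearranged. Fetal liver Fr. B/C cells came from BALB/c embryos at day 16 of gestation, in 3 sorts that each pooled the embryos of 1 pregnant mouse (8 on average). Adult bone marrow Fr. B/C cells came from femur and tibia of BALB/c mice, in 3 sorts that each pooled 3 females. Each sort was measured on its own one-colour Agilent array, no allele or agent was added in either group, and the study as a whole is about Lin28b, which keeps let-7 precursors from maturing in fetal cells. Organ and age differ at once between the groups and cannot be told apart.

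A miRNA is cut from a hairpin precursor by Drosha and Dicer and guides an Argonaute protein to messenger RNAs, mainly through its seed, bases 2 to 8. Many names in the 680 to 730 range entered the registry together, from sequencing of small RNAs of mouse embryos, and part of them were later recognised as pieces of structural RNA. MiR-720 corresponds to a fragment of a threonine transfer RNA and was withdrawn as a miRNA. The letters of miR-712, miR-714 and miR-715 lie in the precursor of ribosomal RNA. The labelling on these arrays joins a dye to RNA 3′ ends after dephosphorylation, so that fragments of such RNAs can be labelled beside true miRNAs.

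The mature sequences of the tested members that RefSeq lists (GRCm38.p6) are shown to make visible which members are unrelated and which share a seed with better known miRNAs. Capitals mark the seed, and sequences run 5′ to 3′. RefSeq sequences were matched for 31 of the 44 members and for 5 of the 10 tested ones.
miR-721: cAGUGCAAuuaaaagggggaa
miR-705: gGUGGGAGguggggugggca
miR-702-3p: uGCCCACCcuuuaccccgcucc
miR-706: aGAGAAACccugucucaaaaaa
miR-690: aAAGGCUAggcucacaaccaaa
These 5 have 5 different seeds. MiR-721 (chromosome 5, 136375777 to 136375797, minus strand) lies within the bounds of Cux1, a homeobox gene. MiR-705 (chromosome 6, 85336341 to 85336360, minus strand) lies within Rab11fip5, miR-702-3p (chromosome 5, 136991520 to 136991541, plus strand) within Plod3, miR-706 (chromosome 6, 120034290 to 120034311, minus strand) within Wnk1 and miR-690 (chromosome 16, 28599940 to 28599961, minus strand) within Fgf12. Exons and introns were not resolved, because only gene bounds were used. The letters of miR-706 match the end of the B1 repeat, a short element present in very many copies, so its stated position is 1 of many places with like letters. MiR-702-3p and miR-705 hold a run of 9 bases that are reverse complements of each other, the longest such run among the 10 pairs of these sequences, where the others had 3 to 6. MiR-689, miR-709, miR-714, miR-715 and miR-720 are named without a sequence.

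The arrays differed in quality. Spots for mouse miRNAs stood well above background in 7.02% of cases on fetal liver replicate 2, against 18.4% to 23.7% on the other 5 arrays, and the SD of its negative control spots was 12.1, against 2.65 to 4.13. Each array was therefore multiplied by a factor, between 0.614 and 1.81, that equalised its 75th percentile over 82 probes seen on all 6 arrays. All 6 arrays were on 1 slide in 1 scan, but the fetal liver arrays occupied 1 row of array positions and the bone marrow arrays the other, so that slide row and tissue cannot be told apart. Let-7d, which checks the labels of a Lin28b study, was at 7.06 ± 0.20 in fetal liver and 9.81 ± 0.11 in bone marrow (log2 scaled signal, SD, n = 3 arrays each; limma, Benjamini-Hochberg adjusted p = 0.000576). Among markers of other cells, the summed scaled signal of the 3 erythroid miRNAs was 514 to 772 in fetal liver and 99.6 to 169 in bone marrow, with miR-144 well above background on no array. The 3 myeloid miRNAs summed to 70.4 to 157 in fetal liver and 399 to 733 in bone marrow. Of these, miR-511 alone had a higher mean in fetal liver, but it was well above background on only 1 array of each tissue. The 3 hepatocyte miRNAs summed to 0 to 37.4 in fetal liver and 2.53 to 4.92 in bone marrow, and miR-192 and miR-194 were well above background on no array. The 2 stromal miRNAs on the array were not well above background either, and the 4 B lineage and general blood miRNAs summed to 641 to 1120 in fetal liver and 688 to 1080 in bone marrow. Of these 4, miR-181a was at 6.57 ± 0.42 in fetal liver and 7.82 ± 0.34 in bone marrow (SD, n = 3 each) and was called lower, with a difference of -1.25 (adjusted p = 0.0252 by limma with Benjamini-Hochberg adjustment), and the other 3 were not called.

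Detection divided the members sharply. A probe was taken as seen on an array when more than 50% of its spots were flagged well above background, and a member was judged by its brightest probe. Counted over any probe of a name, 12 members (27.3%) were seen on at least 1 array, against 164 of the 523 other mouse miRNAs (31.4%). By the brightest probe, 6 members were seen on all 6 arrays, namely miR-689, miR-706, miR-709, miR-714, miR-720 and miR-721. MiR-690, miR-702, miR-705 and miR-715 were seen on 5 arrays and missed on fetal liver replicate 2. MiR-712 was seen on 2 fetal liver arrays and 1 bone marrow array, and miR-680 on 1 bone marrow array (2 by any probe).

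The number of members seen per array was 11, 6 and 11 in fetal liver replicates 1 to 3, against 10, 12 and 10 in bone marrow. The low value belongs to the array on which 54 miRNAs of any name were seen, against 125 to 153 on the others. On that array the members kept 6 of the 12, and they made up 13.6% of the 44, while 9.52% of all mouse miRNAs were seen there. The other 32 members were seen on no array. Among them were both arms of miR-708, which lies within Tenm4, and both arms of miR-693. Their highest scaled signal was 22.4, for miR-718, and 3 of the 32 exceeded the floor of 16.5 that was applied before taking log2. The GC content of the mature sequence had a median of 56.1% over the 6 seen members with a RefSeq sequence, inside the range of 33.3% to 81.0% over the 25 unseen ones.

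The first comparison asked which members differed between fetal liver and bone marrow Fr. B/C cells. To be tested, a miRNA had to be seen on all 3 arrays of one tissue, which held for 135 miRNAs and 10 members. All 10 members passed through the bone marrow arrays, so none owed its place to being high in fetal liver alone. Each difference is the fetal liver mean less the bone marrow mean, in log2 units, and calls need an adjusted p below 0.05 over all 135. Of the 10 members, 2 were called, both higher, against 21.5% called and 10.4% called higher among all tested miRNAs, so the number called is near that of miRNAs in general. Arrays measure RNA of sorted cells in bulk, where fewer cells that hold a miRNA and less of it per cell cannot be told apart.

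**Figure D1:**
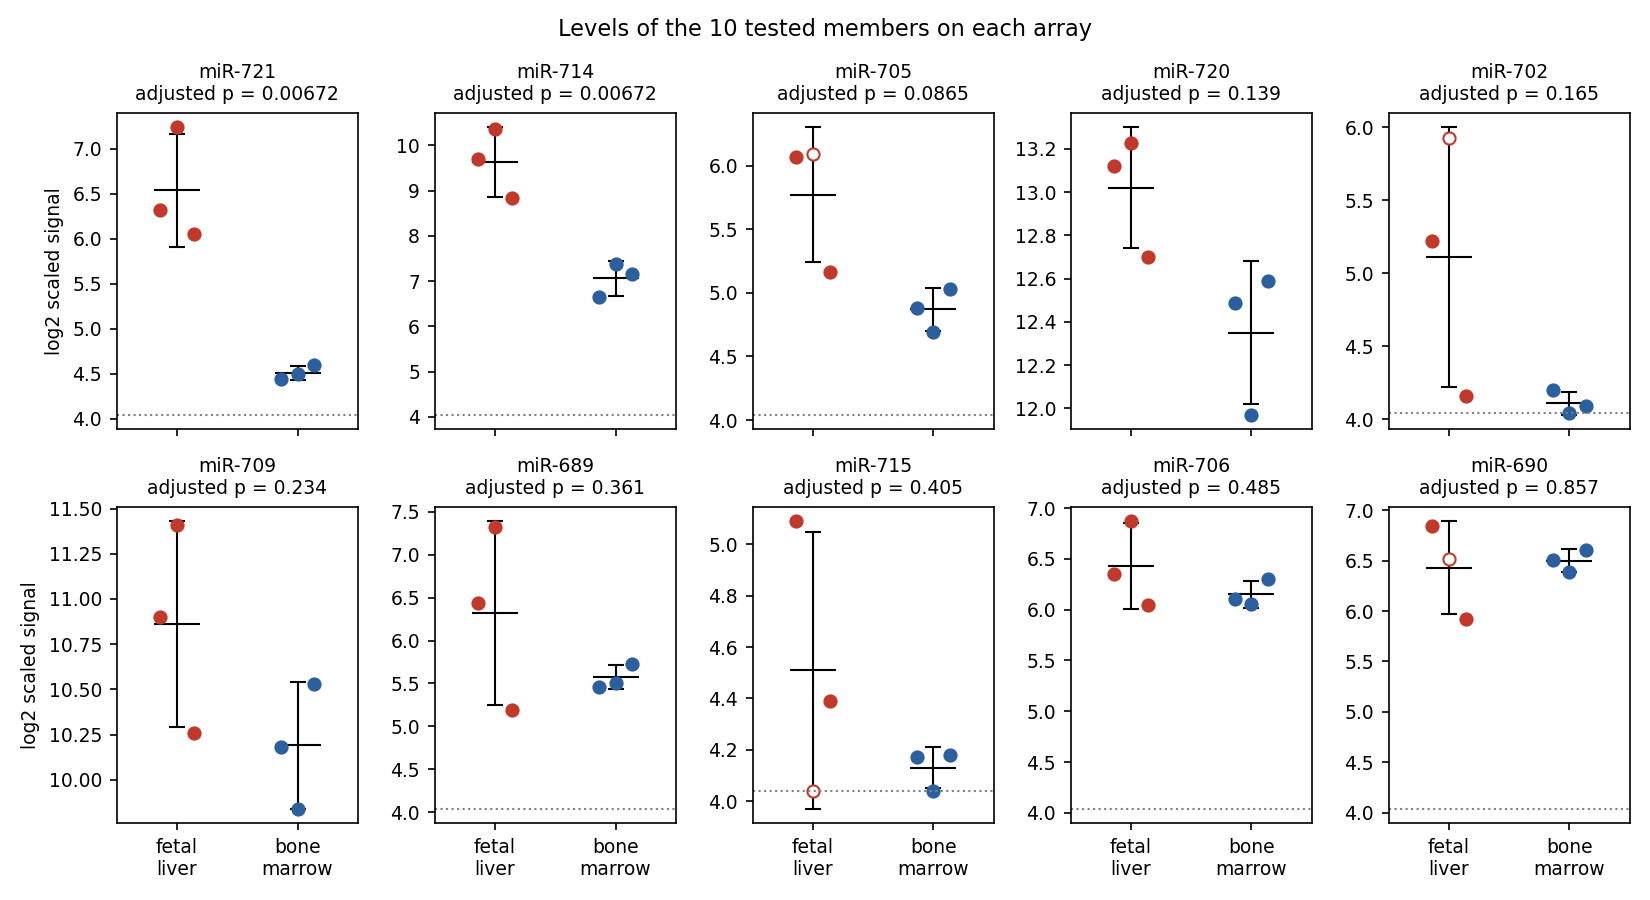
Log2 scaled signal (vertical axis, a separate range per panel) of the 10 tested members on each of 3 fetal liver arrays (left, red) and 3 bone marrow arrays (right, blue), ordered by p. Horizontal bars with whiskers are mean ± SD, open points mark arrays where the member was not well above background, and the dotted line is the floor of 4.04 where it falls within view. The tissues do not overlap for miR-721, miR-714, miR-705 and miR-720, and fetal liver points spread more widely than bone marrow points for all members but miR-720.

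MiR-714, one of the names within the ribosomal RNA precursor, showed the largest difference of the members. Its level was 9.70, 10.36 and 8.83 in fetal liver replicates 1 to 3, against 6.64, 7.38 and 7.15 in bone marrow. The tissues were far apart, and every fetal liver array lay above every bone marrow array. Fetal liver averaged 9.63 ± 0.77 and bone marrow 7.06 ± 0.38 (SD, n = 3 each), a 5.93-fold difference of 2.57 ± 0.42 SE (limma, Benjamini-Hochberg adjusted p = 0.00672). The direction is plain without any scaling: the unscaled signal was 536, 725 and 476 in fetal liver, against 111, 272 and 144 in bone marrow. Without fetal liver replicate 2 the difference was 2.20 ± 0.36 SE (limma, adjusted p = 0.0112).

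MiR-721, known as a circulating marker of myocarditis that T helper cells make in mice, differed by 2.03 ± 0.33 SE, or 4.08-fold (limma, Benjamini-Hochberg adjusted p = 0.00672). It stood at 6.32, 7.24 and 6.05 in fetal liver, against 4.44, 4.49 and 4.6 in bone marrow. The bone marrow arrays were close to each other and near the floor, while all 3 fetal liver arrays were clearly above it. Its unscaled signal was 51.8, 83.6 and 69.5 in fetal liver, against 24.2, 36.6 and 24.4 in bone marrow. The size of this difference varied with the processing. With normexp background correction it was 0.78 and was not called (limma, adjusted p = 0.841), in the authors' deposited table, which differs in normalisation as well, it was 1.13 (limma fit of that table, adjusted p = 0.0146), and without scaling 1.27 (limma, adjusted p = 0.0256). Without fetal liver replicate 2 it was 1.68 ± 0.17 SE (limma, adjusted p = 0.00318).

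MiR-721 shares its seed with the miR-130 and miR-301 family, whose members target the same kind of messenger RNA sites. Their sequences are set beside it because the probes for miR-721 read only its last 12 to 15 bases, where the family members differ.
miR-721: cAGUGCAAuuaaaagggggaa
miR-130a-3p: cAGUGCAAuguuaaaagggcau
miR-130b-3p: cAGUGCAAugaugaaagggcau
miR-301a-3p: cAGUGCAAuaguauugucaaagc
Within the last 15 bases, miR-721 has a longest shared run of 9 bases with miR-130a-3p, 6 with miR-130b-3p and 4 with miR-301a-3p. MiR-130a was at 6.92, 5.77 and 7.09 in fetal liver, against 5.55, 5.21 and 5.06 in bone marrow (difference 1.33 ± 0.38 SE; limma, Benjamini-Hochberg adjusted p = 0.0513). The fetal liver arrays ran in the opposite order to those of miR-721, which was highest on replicate 2, where miR-130a was lowest and not well above background. MiR-301a was at 7.98, 7.42 and 7.97 in fetal liver, against 6.73, 5.79 and 6.28 in bone marrow, and was called higher (1.52 ± 0.31 SE; limma, Benjamini-Hochberg adjusted p = 0.0135). MiR-130b did not pass the threshold, with a difference of 0.24 ± 0.22 SE (limma, Benjamini-Hochberg adjusted p = 0.464). Whether probes of one name also bind another was not tested.

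The 2 other members on the array that lie in the ribosomal RNA precursor and were seen, miR-715 and miR-712, lay close to the floor. MiR-715 was at 5.09, 4.04 and 4.39 in fetal liver, against 4.17, 4.04 and 4.18 in bone marrow, so that 1 array of each tissue lay at the floor (difference 0.38 ± 0.30 SE; limma, Benjamini-Hochberg adjusted p = 0.405). MiR-712, a flow-sensitive small RNA of mouse endothelium that lowers the metalloproteinase inhibitor Timp3, was at 5.58, 5.29 and 5.66 in fetal liver and at the floor of 4.04 on all 3 bone marrow arrays. It did not enter the comparison, since it was seen on 2 fetal liver arrays and 1 bone marrow array. A looser filter would admit it through the tissue where it is high and set it against values at the floor, so no difference is given for it. Its unscaled signal was 31.0, 21.7 and 53.2 in fetal liver, against 11.4, 20.3 and 8.27 in bone marrow. MiR-712* was seen on no array. Of the 4 members linked to ribosomal RNA, 3 were thus seen, 2 were tested (miR-714 and miR-715) and 1 was called higher, against 10.4% called higher among all tested miRNAs. A count over 2 tested names describes only those names.

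MiR-720, the transfer RNA fragment, was at 13.12, 13.23 and 12.70 in fetal liver, against 12.49, 11.97 and 12.59 in bone marrow. The tissues did not overlap, by a narrow margin, and the difference of 0.66 ± 0.26 SE missed the threshold (limma, unadjusted p = 0.0415, Benjamini-Hochberg adjusted p = 0.139). Before scaling the tissues overlapped: the miR-720 signal was 5739, 5296 and 6990 in fetal liver, against 6404, 6538 and 6243 in bone marrow. MiR-709, a nuclear RNA reported in mice to slow the maturation of miR-15a and miR-16, was at 10.90, 11.41 and 10.26 in fetal liver, against 10.18, 9.84 and 10.53 in bone marrow (difference 0.67 ± 0.35 SE; limma, Benjamini-Hochberg adjusted p = 0.234). Its unscaled signal overlapped as well, with 1239, 1498 and 1290 in fetal liver, against 1295, 1492 and 1498 in bone marrow. Without scaling, the differences of these 2 members were -0.10 and -0.09, so their positive sign is present only after scaling. A list of likely structural RNA fragments used for these data holds miR-709, miR-712, miR-714, miR-720 and miR-721. It includes miR-721, which has a RefSeq entry and the miR-130 seed, and leaves out miR-715. Of its 5 names all were seen, 4 were tested and 2 were called higher, against 10.4% called higher among all tested miRNAs. The median difference was 1.35, against 0.25 over all 135. The 2 called are miR-714 and miR-721 again, and the list was chosen with earlier results of these data known. Its count and median describe only these names.

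The remaining 5 tested members were not called. MiR-705, reported in mouse marrow stromal cells to favour adipocyte over bone cell fate, was at 6.07, 6.09 and 5.16 in fetal liver, against 4.88, 4.69 and 5.03 in bone marrow, and the tissues did not overlap (0.91 ± 0.31 SE; limma, Benjamini-Hochberg adjusted p = 0.0865). Its unscaled signals did overlap, with 43.6, 37.5 and 37.5 in fetal liver, against 32.8, 42.0 and 33 in bone marrow, and its difference was 0.14 without scaling and 0.29 in the authors' deposited table (limma, adjusted p = 0.826 and adjusted p = 0.295). MiR-702, a mirtron whose hairpin is released by splicing, was at 5.22, 5.93 and 4.16 in fetal liver, against 4.20, 4.04 and 4.09 in bone marrow (0.99 ± 0.44 SE; limma, Benjamini-Hochberg adjusted p = 0.165). For miR-702 the fetal liver arrays reached down to the level of bone marrow, which was at the floor on 1 array.

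MiR-689 was at 6.44, 7.32 and 5.19 in fetal liver, against 5.46, 5.51 and 5.73 in bone marrow (0.75 ± 0.51 SE; limma, Benjamini-Hochberg adjusted p = 0.361). MiR-706 was at 6.35, 6.87 and 6.05 in fetal liver, against 6.10, 6.06 and 6.30 in bone marrow (0.27 ± 0.26 SE; limma, Benjamini-Hochberg adjusted p = 0.485). MiR-690, carried in mouse macrophage exosomes that improve insulin sensitivity, was at 6.84, 6.52 and 5.92 in fetal liver, against 6.51, 6.39 and 6.60 in bone marrow (-0.07 ± 0.28 SE; limma, Benjamini-Hochberg adjusted p = 0.857). For all 3 the fetal liver arrays lay on both sides of the bone marrow arrays. Without fetal liver replicate 3, 5 members were called, miR-689, miR-702 and miR-705 in addition to the other two, while calls over all 135 miRNAs also went up to 43, against 29 with all arrays.

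Beyond single calls, 9 of the 10 members had a positive difference, with a median of 0.71, whereas 61.5% of all 135 tested miRNAs did, with a median of 0.25. Groups did not overlap for 4 members, all higher in fetal liver, against 40.7% of all tested miRNAs in either direction and 22.2% in that one. The direction of most members that were not called rests on the scaling. Without scaling 4 of the 10 differences were positive, those of miR-689, miR-706, miR-709, miR-715 and miR-720 were between -0.49 and -0.01, and that of miR-690 was -0.84. The members' median was then -0.02 and the median of all miRNAs shifted by -0.75. The unscaled signals of miR-690 were 74.0, 50.8 and 63.7 in fetal liver, against 102, 136 and 98.0 in bone marrow, and those of miR-706 were 52.8, 64.7 and 69.6 in fetal liver, against 76.2, 109 and 79.5 in bone marrow. Before scaling both were lower in fetal liver without overlap between the tissues, and after scaling the tissues overlapped for both. The split of calls over all miRNAs moved as well, with 14 of 29 calls higher in fetal liver under the main scaling and 4 of 24 without scaling. MiR-714 and miR-721 were higher and called under each of the 6 scalings, and the members' median stayed above that of all miRNAs in each.

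**Figure D2:**
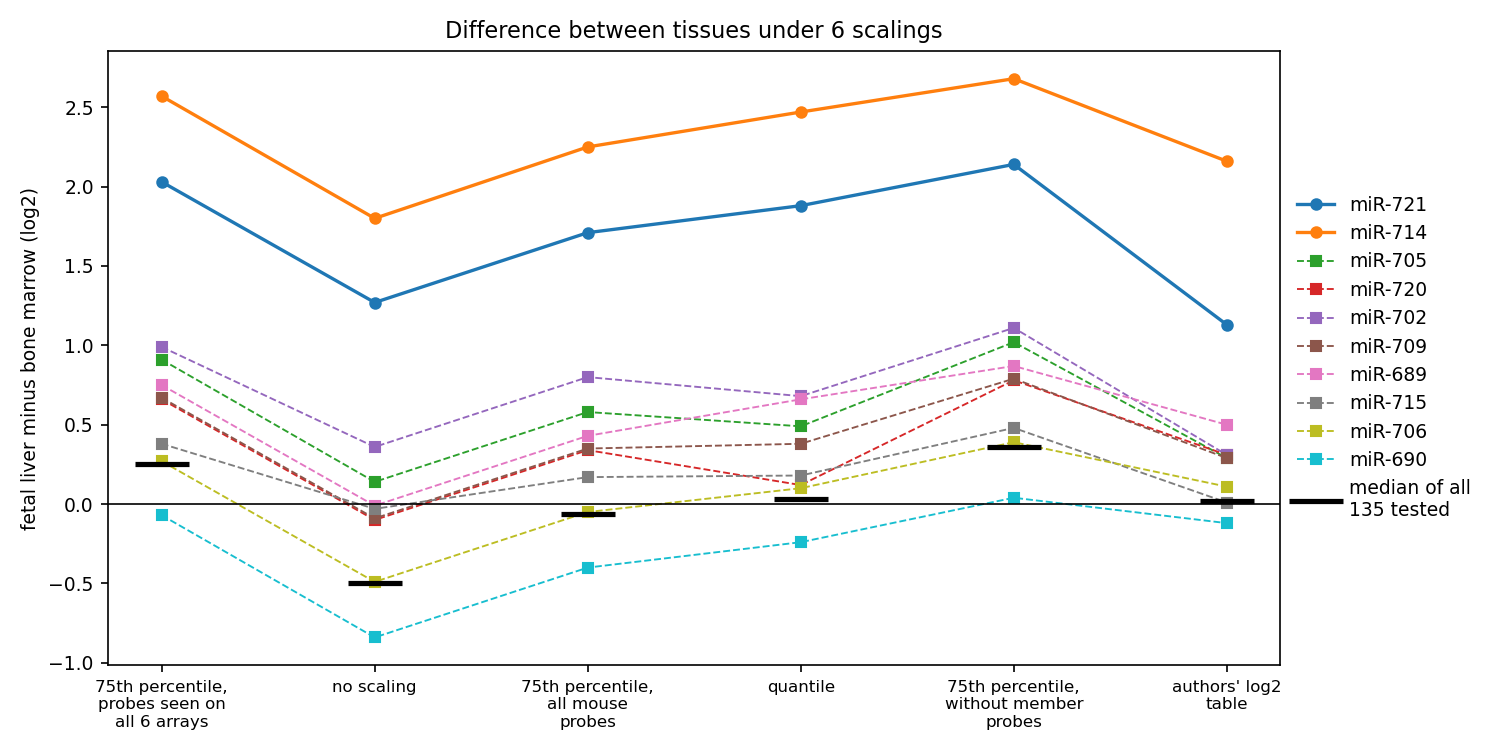
Fetal liver minus bone marrow (log2, vertical axis) of each tested member under 6 scalings (horizontal axis), with black bars for the median of all 135 tested miRNAs. MiR-714 runs between 1.80 and 2.68 and miR-721 between 1.13 and 2.14, while miR-690 lies lowest in all 6. Lines only join values of one member.

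The unscaled signals show the same from another side. Summed over the brightest probe of each name, the 44 members gave 7920, 7937 and 9149 units on the fetal liver arrays, against 8194, 8803 and 8248 on the bone marrow arrays. All 567 miRNAs summed to 29068, 25611 and 39402 in fetal liver, against 41226, 56694 and 39836 in bone marrow. The members' sum was nearly constant while the total was not. The members' share of the signal was therefore 27.2%, 31.0% and 23.2% in fetal liver, against 19.9%, 15.5% and 20.7% in bone marrow, and the tissues did not overlap. MiR-720 made up most of it, with 19.7%, 20.7% and 17.7% of the total in fetal liver, against 15.5%, 11.5% and 15.7% in bone marrow. These are shares of probe signal, not of molecules, since probes of different miRNAs do not bind equally well.

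**Figure D3:**
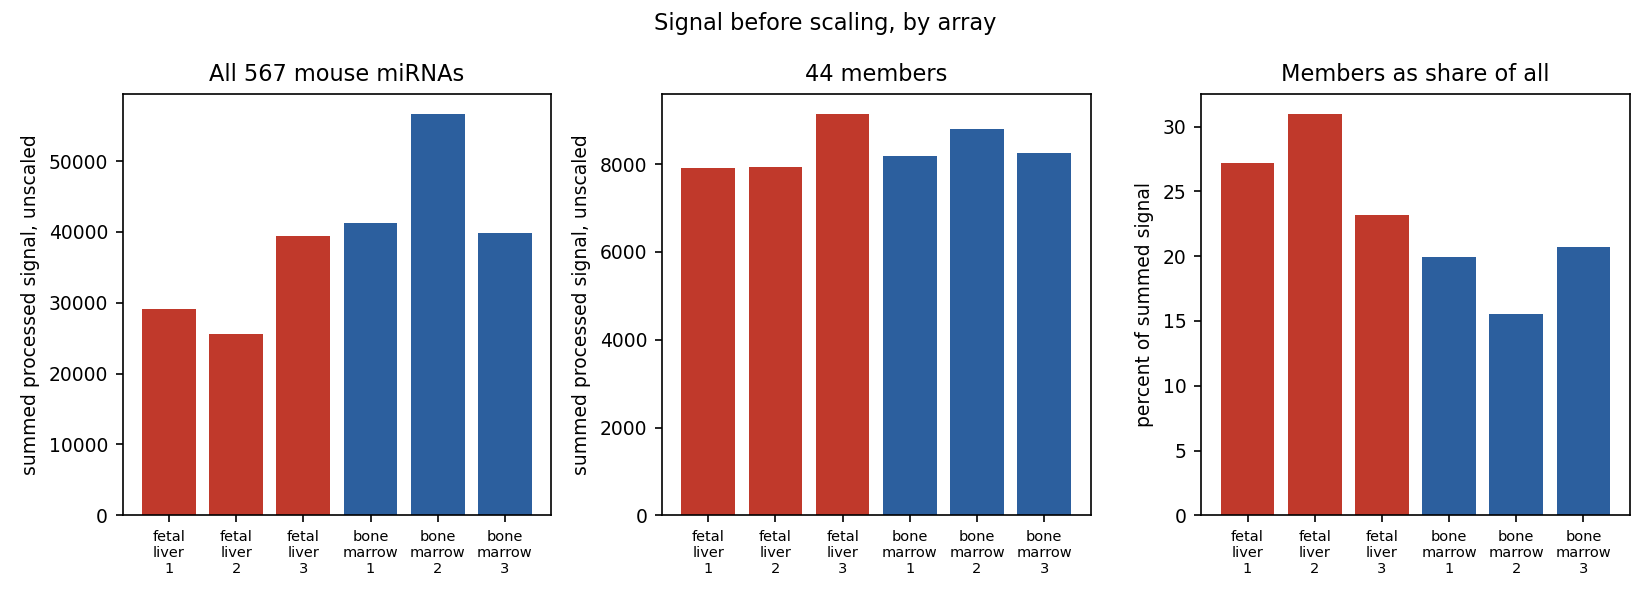
Summed processed signal before scaling (arbitrary scanner units; negative signals set to 0) over all 567 mouse miRNAs (left) and over the 44 members (middle), and the members' percentage of the total (right), on 3 fetal liver arrays (red) and 3 bone marrow arrays (blue). The members' sum lies between 7920 and 9149 on all 6 arrays, and their share is at least 23.2% in fetal liver and at most 20.7% in bone marrow.

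The second question was whether the probes of a miRNA agree. Of the members, 40 have 4 probes and 4 have 2, in each case with 20 spots in all. Where the array gives positions, the probes of a name share one end of their target and differ in how far they reach, with targets of 10 to 21 bases over the members, so they are not independent of each other. Of the 22 member probes that could be tested, 8 were called, all higher in fetal liver, against 19.4% called and 8.7% called higher among 253 tested mouse probes. They were all 4 probes of miR-721, both tested probes of miR-714 and 2 of the 4 probes of miR-705. Without bone marrow replicate 3 the count was 2, beside 21 calls among 293 mouse probes. Without fetal liver replicate 3 it was 13, beside 72 among 255, and with normexp it was 0, beside 3 among 253. With all arrays 49 of the 253 mouse probes were called, so the members' count moved with that of all probes.

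The 4 miR-721 probes, whose targets run from 12 to 15 bases, gave differences between 2.03 and 2.08, with SEs of 0.30 to 0.34. Agreement was as close for miR-714, where the 2 tested probes gave 2.57 ± 0.43 SE and 2.63 ± 0.43 SE (limma, Benjamini-Hochberg adjusted p = 0.00775 and adjusted p = 0.00725). Of its other 2 probes, one was seen on 2 fetal liver arrays and no bone marrow array, and the last on none. The brightest probe of miR-705 (13 bases) gave 0.91 ± 0.31 SE and was not called, while the next (10 bases) gave 1.2 ± 0.30 SE (limma, Benjamini-Hochberg adjusted p = 0.0328). The probe of 11 bases gave 0.99 ± 0.27 SE (limma, Benjamini-Hochberg adjusted p = 0.049), so whether miR-705 was called under this scaling depended on the probe taken. For miR-706, only the longest probe (19 bases) could be tested: the probes of 16 and 17 bases were seen on no array and that of 18 bases on 1 bone marrow array. MiR-715 likewise rests on 1 of 4 probes, that of 12 bases, and the probes of 10, 11 and 13 bases were seen on no array.

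**Figure D4:**
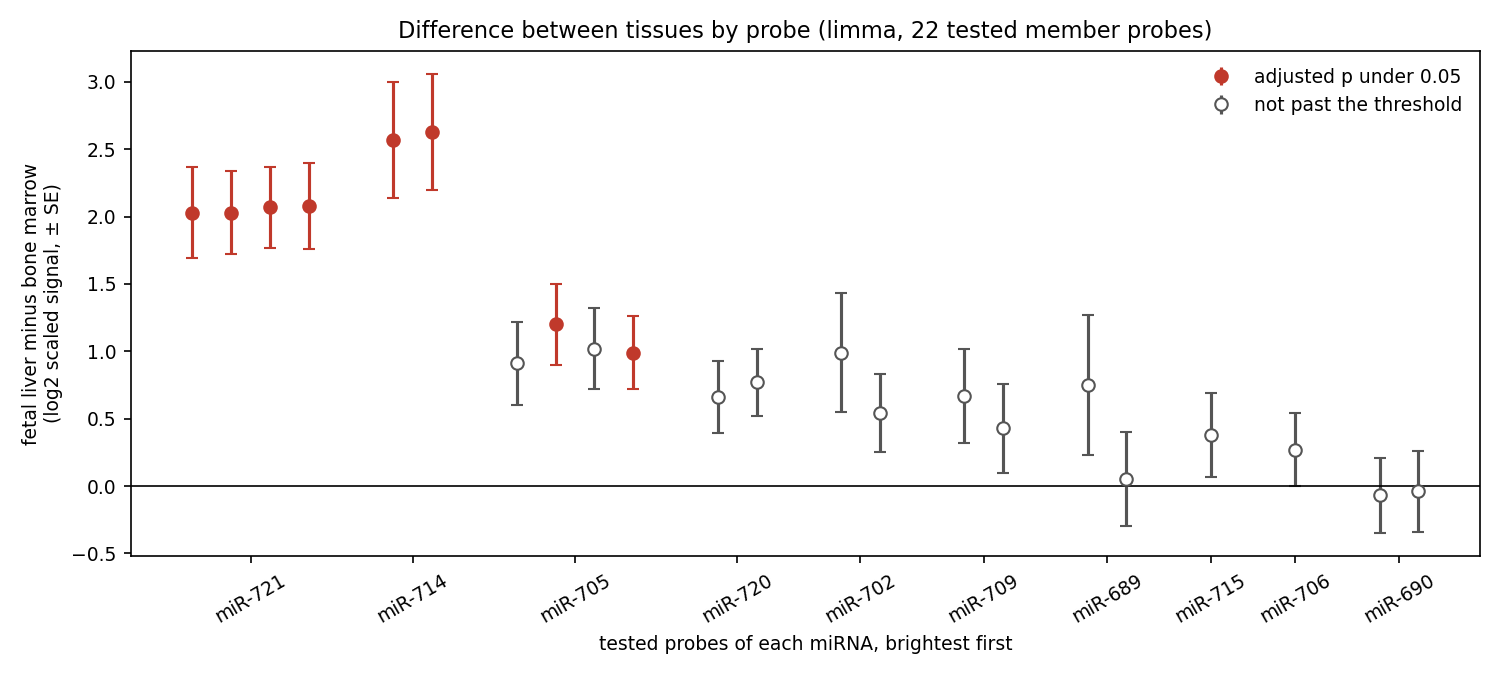
Fetal liver minus bone marrow (log2 scaled signal, ± SE from limma, n = 3 arrays each) for the 22 tested probes of the 10 tested members, brightest probe of each miRNA first. Filled red points passed an adjusted p under 0.05. All 4 probes of miR-721 and both of miR-714 lie above 2, and 2 of the 4 miR-705 probes passed.

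The gap between the 2 brightest probes of a miRNA cancels the scale factor of an array and so asks directly whether the probes saw the same difference. It could be tested for 7 members, of which 0 were called, against 4.3% of 93 miRNAs (limma, Benjamini-Hochberg adjustment), and 2 had an unadjusted p under 0.05. For miR-705 the gap was 0.05, 0.04 and -0.02 in fetal liver, against 0.27, 0.31 and 0.37 in bone marrow. The tissues did not overlap, although the change in the gap was small at -0.29 ± 0.06 SE (limma, Benjamini-Hochberg adjusted p = 0.0699). For miR-709 it was 3.1, 3.27 and 3.20 in fetal liver, against 3.00, 2.86 and 2.99 in bone marrow (0.24 ± 0.08 SE; limma, Benjamini-Hochberg adjusted p = 0.21). The miR-720 gap was steadier, at 2.56, 2.52 and 2.40 in fetal liver, against 2.57, 2.59 and 2.61 in bone marrow (-0.10 ± 0.07 SE; limma, Benjamini-Hochberg adjusted p = 0.58).

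Fetal liver replicate 2 stood out in the gaps. For miR-689 the gap was 1.15, 3.15 and 1.03 in fetal liver, against 1.02, 1.10 and 1.10 in bone marrow. The value of 3.15 belongs to fetal liver replicate 2, where the brighter probe was at 7.32 and the other, whose target has 12 bases in place of 13, at 4.17 and not well above background. The other 5 arrays gave gaps between 1.02 and 1.15, and miR-689 was also the member with the largest spread in fetal liver (SD 1.07).

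The third question was how the members vary together across arrays. Within a tissue most of them shared their highest and lowest array. Fetal liver replicate 3 was the lowest of the fetal liver arrays for 9 of the 10 members, against 43.7% of all tested miRNAs, and replicate 2 the highest for 8, against 27.4%. The exception in both was miR-715, which was at the floor on replicate 2, and miR-690 and miR-715 were highest on replicate 1. On replicate 2 only 54 mouse miRNAs were seen, and 38.5% of all tested miRNAs were lowest there. Dim miRNAs at the floor cannot be highest, so the share of 27.4% is not a like background. MiR-702 and miR-705, counted among the 8, were themselves not seen on that array. Relative to the mean of the fetal liver arrays, the members' median deviation was 0.11, 0.50 and -0.55 on replicates 1 to 3, while that of all 135 miRNAs was 0.16, -0.07 and -0.12. In bone marrow the deviations were smaller, with replicate 3 the highest array for 8 of 10 members (45.9% of all) and replicate 2 the lowest for 7 (55.6% of all). The order of replicates has no meaning of its own, and the members share each array's scale factor, spots and RNA sample, so these are descriptions of 6 arrays.

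**Figure D5:**
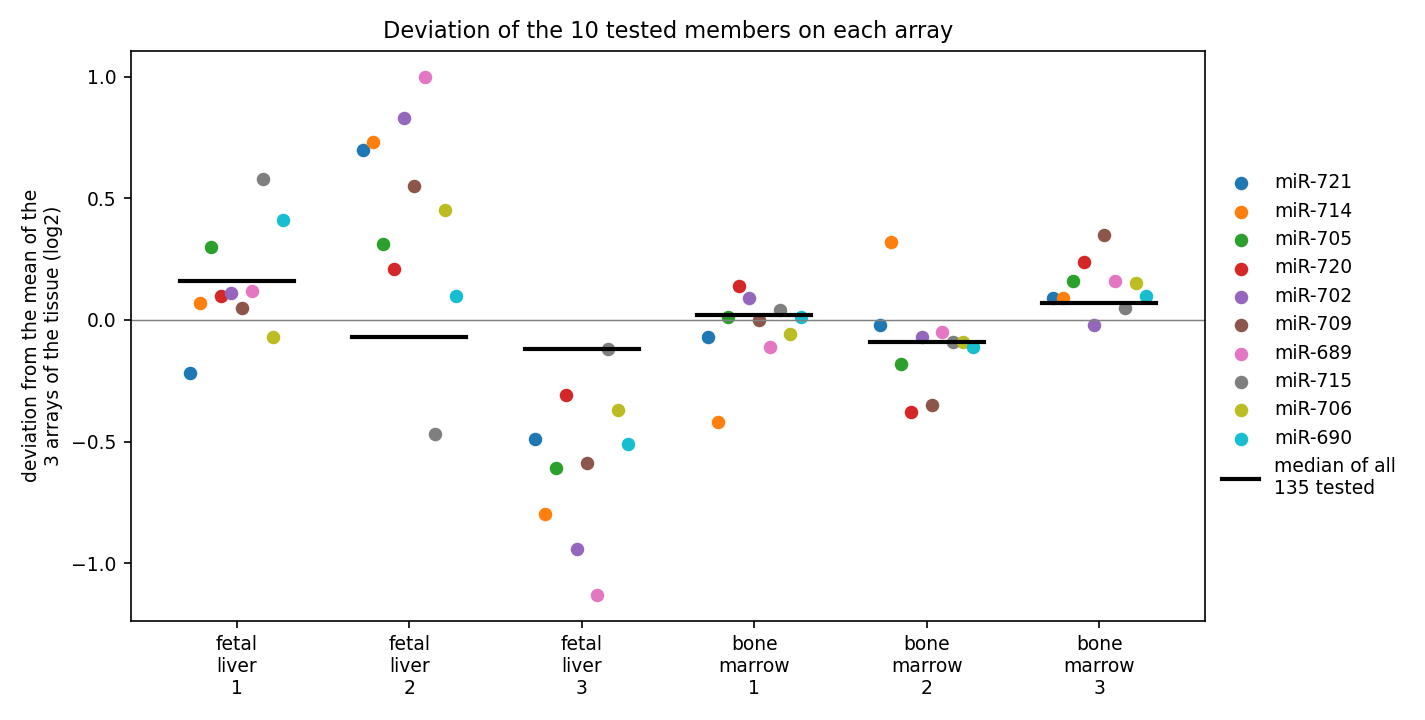
Deviation of each tested member (coloured points) from the mean of the 3 arrays of its tissue (log2, vertical axis), on 3 fetal liver and 3 bone marrow arrays, with black lines for the median deviation of all 135 tested miRNAs. The members lie mostly above 0 on fetal liver replicate 2 and all below 0 on replicate 3, whereas the median of all miRNAs is within 0.16 of 0 on every array.

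Differences in level between 2 members on the same array remove whatever the array does to both. They are used here only for how they vary across arrays, since levels of different probes cannot be compared. Over the 45 pairs of tested members, the SD of this difference across the 6 arrays had a median of 0.54. Over all 9045 pairs of tested miRNAs it was 0.81, and over the 28 member pairs without miR-714 and miR-721 it was 0.46. The 0.81 keeps pairs with the 29 called miRNAs, so the 0.46 has no like value beside it. This SD spans both tissues and holds differences between tissues as well as variation within them. The steadiest pairs were miR-689 with miR-702 and miR-709 with miR-720, both with an SD of 0.21, and 1.85% of all pairs were steadier than that. Both were picked as the lowest of 45, so a small share follows from the picking and is no sign of unusual agreement. MiR-702 was also at or near the floor in bone marrow (4.20, 4.04 and 4.09) and not well above background on fetal liver replicate 2. The level of miR-709 minus that of miR-720 was -2.21, -1.82 and -2.44 in fetal liver, against -2.31, -2.13 and -2.06 in bone marrow. The means, -2.16 ± 0.31 in fetal liver and -2.17 ± 0.13 in bone marrow (SD, n = 3 each), differed by less than the spread between arrays.

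The difference did not overlap between tissues for 23 of the 45 pairs, against 44% of all pairs. All 16 pairs that join miR-714 or miR-721 to one of the other 8 members were among the 23, whereas 7 of the 28 pairs without them were. These 2 members were set apart because their own levels separate the tissues, and pairs share members. The split therefore restates their calls and adds no support to them. MiR-714 minus miR-720 was -3.42, -2.87 and -3.88 in fetal liver, against -5.85, -4.59 and -5.44 in bone marrow, a change of 1.90. MiR-720 minus miR-721 was 6.79, 5.98 and 6.65 in fetal liver, against 8.05, 7.48 and 8.00 in bone marrow, a change of -1.36. The tissues did not overlap in either, and multiplying a whole array by a factor does not alter such a difference. MiR-714 minus miR-721 overlapped between tissues, with 3.37, 3.12 and 2.78 in fetal liver, against 2.20, 2.89 and 2.55 in bone marrow. With 3 arrays each, the exact two-sided permutation test of any one pair cannot go below p = 0.1.

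Markers of blood cells differed between the tissues alongside miR-714 and miR-721. MiR-451, the defining erythroid miRNA, was higher in fetal liver by 2.41 (limma, adjusted p = 0.00252 after Benjamini-Hochberg adjustment). MiR-486 on the erythroid list was seen on 2 arrays of each tissue and was untested. It was at 5.5 ± 0.74 (SD) in fetal liver against the floor in bone marrow, where seen signals were set to the floor. MiR-144 was at the floor in both. MiR-223, the defining granulocyte and monocyte miRNA, differed by -2.0 (limma, Benjamini-Hochberg adjusted p = 0.00786). MiR-146a, also on the myeloid list, differed by -3.64 (limma, Benjamini-Hochberg adjusted p = 0.000576). The mean of miR-511 on that list went the other way, at 4.93 ± 1.08 (SD) in fetal liver against the floor in bone marrow, untested. It was seen on only 1 array of each tissue, so its direction is not settled. The early lymphoid marker miR-181a was lower in fetal liver. Their part in the members' results was not tested.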

How the data were processed

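Per the labels' protocols, RNA was extracted with TRIzol, treated with phosphatase and joined to a Cy3 dye at its 3′ end. The deposited intensity (processed signal) came from Agilent Feature Extraction 9.5.3.1, per the file headers, which subtracted background within each array without normalising between arrays. The flags per spot, scored 0 or 1 per the file headers, include the call as well above background. The authors also deposited log2 values per spot, all 6 columns having a median of 5.24 and running 4.66 to 15.79. Their direction follows the processed signal (Spearman's rho 0.963 to 0.994 per array). They were an alternative only, since their background correction was not stated in the labels or headers.

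Spots of a probe were averaged without outliers, and no spot was saturated. Signals were scaled by each array's 75th percentile over 82 probes, set to a common floor of 16.5 (4.04 on the log2 scale) and put on the log2 scale, and a miRNA was represented by its brightest probe. Values at the floor have no order. Before scaling this floor equalled 9.08 in fetal liver replicate 2 and 26.8 in bone marrow replicate 2. Seen signals went down to 13.2 in the latter, but no lower than 58.7 in the former. For miR-702 an unseen 33.7 in fetal liver replicate 2 thus became 5.93, and a seen 20.4 in bone marrow replicate 2 became 4.04. With a floor of 1 its difference was 1.12, and with a doubled floor 0.36. How far the uneven floor moved the differences of dim members was not tested. Fits used limma 3.58.1 (lmFit and eBayes) in R 4.3.3 with Benjamini-Hochberg adjustment over all tested miRNAs, probes or gaps between probes. The 3 sorts per group came from different animals. Same-numbered arrays of the tissues did not deviate together (r 0.17, -0.12 and -0.24), so no pairing was used. Every tested member is named, as are members seen but not tested, cell type markers, let-7d and miRNAs that share a seed with a tested member. MiR-718, miR-708, miR-693 and miR-712* were singled out after their values were seen. Alternatives covered scaling, background correction, floor, filter, probe choice, a replicate block, an intensity trend and leaving out each array. Members and lists were chosen with earlier results of these data known. In 20 simulated data sets of the comparison, with 135 miRNAs each, 97.5% of 4-fold changes, 41.8% of 2-fold changes and 0.895% of unchanged miRNAs were called. These simulations used the same SD for every miRNA and both tissues, with no floor and no weak array. In the data the SD differed between miRNAs and between tissues, so these shares do not measure power or false calls here. The number of arrays limits the precision. Sequences and positions are RefSeq's (GRCm38.p6).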

Additional observations from a re-analysis of the deposited data

How the results depend on the processing

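The number of members called was 2, beside 29 of 135 miRNAs, and the number of member probes called 8, beside 49 of 253. With normexp background correction they were 1 and 0, beside 9 of 135 miRNAs and 3 of 253 probes. With no filter on dim probes they were 1 and 1, beside 12 of 567 miRNAs and 12 of 1672 probes. The member called with no filter was miR-712, whose bone marrow values all lay at the floor with no spread, so its call is not read as a difference. With a doubled floor 4 member probes were called, beside 34 of 253. The unfiltered fit takes in probes that lie at the floor with no spread, and their effect on the calls was not tested. Leaving out single arrays gave 2 to 5 members, beside 14 to 43 of all tested miRNAs, and 2 to 13 probes, beside 21 to 72 mouse probes. The number of members whose probe gap was called was 0, beside 4 of 93 miRNAs. It was 1 without scaling (7 of 93), 1 with quantile normalisation (4 of 93) and 1 with an intensity trend (4 of 93). With no filter it was 2, beside 10 of 564. When single arrays were left out it was 0 to 1, beside 3 to 9 of all tested gaps. Without fetal liver replicate 2 over the same probes it was 1, beside 8 of 93, an alternative chosen after seeing the data. The gap called was that of miR-705, except miR-720 with quantile normalisation and miR-705 with miR-712 without a filter. Non-overlapping pairs of members were 23, and 15 with normexp (28.6% of all pairs), also chosen after seeing the data.

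Of 213 values of single members under alternatives, 9 changed sign, all for members that were not called. Without scaling miR-689 was at -0.01, miR-706 at -0.49, miR-709 at -0.09, miR-715 at -0.03 and miR-720 at -0.10. MiR-706 was at -0.05 when scaled over all mouse probes. MiR-690 was at 0.04 when scaled without member probes, 0.04 with normexp and between -0.28 and 0.18 when single arrays were left out, the positive value being without fetal liver replicate 3. MiR-714 was called in 21 of 22 alternatives (1.48 to 2.97), the lowest being the average over all its probes, and miR-721 in 20 of 22 (0.78 to 2.27). With no filter their adjusted p were 0.157 and 0.133 (limma, Benjamini-Hochberg). With the replicate block the 2 members were called as before, beside 23 of 135 miRNAs. The member probes called were then 6, beside 36 of 253, and the gaps 0, beside 1 of 93. The cause of these changes was not tested.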
